A study of Mus musculus with 12 samples.

Results

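The genes of the 4 families of axon guidance cues and of their receptors (semaphorins, ephrins, Slits and netrins) were followed across 12 pools of cells picked from mouse retina. Members were taken by name: protein-coding genes whose symbol begins with Robo, Slit, Sema, Plxn, Epha, Ephb, Efna, Efnb or Ntn followed by its family letter or number, Unc5a to Unc5d, and Dcc, Neo1, Nrp1 and Nrp2. This rule found 69 of the 54232 genes counted. The rule itself used no measured value, although the members were chosen with earlier results of these data known. They were 14 Eph receptors, 8 ephrins, 20 semaphorins, 9 plexins, 2 neuropilins, 3 Slits, 4 Robos, 3 netrins and 6 netrin receptors. All mice were adult male wild-type (WT) animals. All eyes received an AAV2 vector in the vitreous, AAV-Olig1 or the control AAV-GFP, and all optic nerves were crushed (ONC), which severs the axons of retinal ganglion cells. Olig1 is a transcription factor of the helix-loop-helix type, best known from oligodendrocytes and their precursors. Fluorescent cells were picked by Unipick after separation with CD90.2 beads, 7 or 14 days after the crush. Crossing virus with time gave 4 groups of 3 libraries each, called GFP or Olig1 with the day. The treatment label gives 14 days since injection at both times. Each library came from a pool of only 10 to 20 cells, and the promoter of the vector is not given in the sources used here. Nothing in the labels states that replicate libraries are from different mice, so the tests weigh library-to-library spread, part or all of which may be technical.

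Axon guidance genes encode cues on or near cells and the receptors by which a growth cone reads them. In the retina, ephrin-A and EphA gradients set the map of ganglion cell axons in the brain, Slits and Robos keep axons in the fibre layer and at the optic chiasm, and netrin-1 with its receptor Dcc guides axons out at the optic disc. Semaphorins act through plexins, with neuropilins as co-receptors for the secreted class 3 semaphorins, and class 5 and 6 transmembrane semaphorins keep neurites within the layers of the inner retina. Some of these genes stay on in the adult retina, where several of the cues are known as inhibitors of growing axons.

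Total counts per library ranged between 12534515 and 27602459, so that 3 counts, the upper limit a count of 0 allows, correspond to 0.109 to 0.239 CPM, the usual scaling of counts by library total. Both these limits and the intervals given below reflect counting error alone. Olig1 was at 0 to 0.351 CPM in the 6 GFP libraries and at 56.4 to 1029 CPM in the 6 Olig1 libraries, as labelled. The cells were labelled as retinal ganglion cells, but the summed level of 12 ganglion cell markers was low in the GFP libraries (54.1 to 253 CPM at day 7 and 83.1 to 247 CPM at day 14). The same sum was 1808 to 3957 CPM in Olig1 day 7 and 139, 147 and 3138 CPM in Olig1 day 14. Of these markers, Pou4f3 was at 0 in all 12 libraries. Pou4f2 was at 0 in all 3 GFP day 7 libraries, and Pou4f1, Pou4f2 and Slc17a6 were at 0 in all 3 GFP day 14 libraries. Pou4f1, Pou4f2 and Slc17a6 were also at 0 in Olig1 day 14 replicate 1, and Pou4f2 in replicate 2. The 10 rod markers ran the other way, from 10130 to 52140 CPM in GFP day 7 against 543 to 782 CPM in Olig1 day 7, and at day 14 from 3289 to 44810 CPM in GFP against 828 to 10430 CPM in Olig1. The 9 amacrine markers lay at 339 to 763 CPM in GFP day 7 and at 1463 to 3925 CPM in Olig1 day 7. The 12 Müller glia markers summed to 46980 CPM or more in every library, most of it Apoe and Clu. At day 7 all of them but Apoe, Vim and Kcnj10 were lower in every Olig1 library than in every GFP library. Rlbp1, for example, was at 765 to 1740 CPM in GFP day 7 and at 168 to 370 CPM in Olig1 day 7, and Glul at 3770 to 5081 CPM against 245 to 936 CPM. Microglia or macrophage markers stood at 879 to 6161 CPM in 4 libraries (GFP day 7 replicate 3, Olig1 day 7 replicate 3, GFP day 14 replicates 2 and 3) and at 2.93 to 36.0 CPM in the other 8, and GFP day 14 replicate 3 also held 132550 CPM of B or plasma cell markers. Cone markers lay at 1404 to 1941 CPM in GFP day 7 against 20.6 to 109 CPM in Olig1 day 7, and at 1170 to 5595 CPM against 41.9 to 745 CPM at day 14. Bipolar markers lay at 1144 to 2104 CPM in GFP day 7 against 236 to 517 CPM in Olig1 day 7, and at 1437 to 5496 CPM against 211 to 478 CPM at day 14. Microglia or macrophage markers, which overlapped at day 7, were at 25.0 to 6161 CPM in GFP day 14 and at 2.93 to 13.6 CPM in Olig1 day 14. At day 7 the endothelial, pericyte and oligodendrocyte lineage sums were also lower in every Olig1 library. In GFP day 7 most of these sums was Kdr with Flt1, Vtn, and Cnp, respectively. Cldn5, Cdh5, Tie1, Tek, Olig2, Sox10, Mag and Pdgfra were at 0 in both day 7 groups, and the pericyte markers Abcc9, Cspg4 and Notch3 at 0 in GFP day 7. The part of these markers in the comparisons below was not tested.

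Most guidance genes were read in some pools and missed in others. Of the 69, 64 had more than 3 counts in at least 1 library, 15 had more than 3 counts in all 12 (23.4% of the 64, against 35.4% of all protein-coding genes so detected), and 5 had more than 3 counts in none. The 15 were Efna5, Efnb2, Epha4, Epha5, Epha7, Epha8, Ephb1, Neo1, Plxnb1, Plxnc1, Robo2, Sema4b, Sema4d, Sema5a and Unc5c. Robo4, the Robo of endothelial cells, Ntn5 and Sema3g had 0 counts in all 12 libraries, while netrin-1 (Ntn1) had 3 counts in all and Plxnb3 had 1. The number of members detected per library ran from 24 in GFP day 14 replicate 1, which also had the fewest genes with a count (10129), to 52 in Olig1 day 7 replicate 3. Above 3 counts, 9 members were seen only in Olig1 libraries (Efna3, Efna4, Ephb6, Plxna3, Robo1, Robo3, Sema3a, Sema3c and Unc5b), 14.1% of the 64 against 8.93% of protein-coding genes. Sema4c alone was seen only in GFP libraries (1.56% against 6.04%). In pools of this kind, fewer cells of a type and less RNA per cell cannot be told apart.

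**Figure D1:**
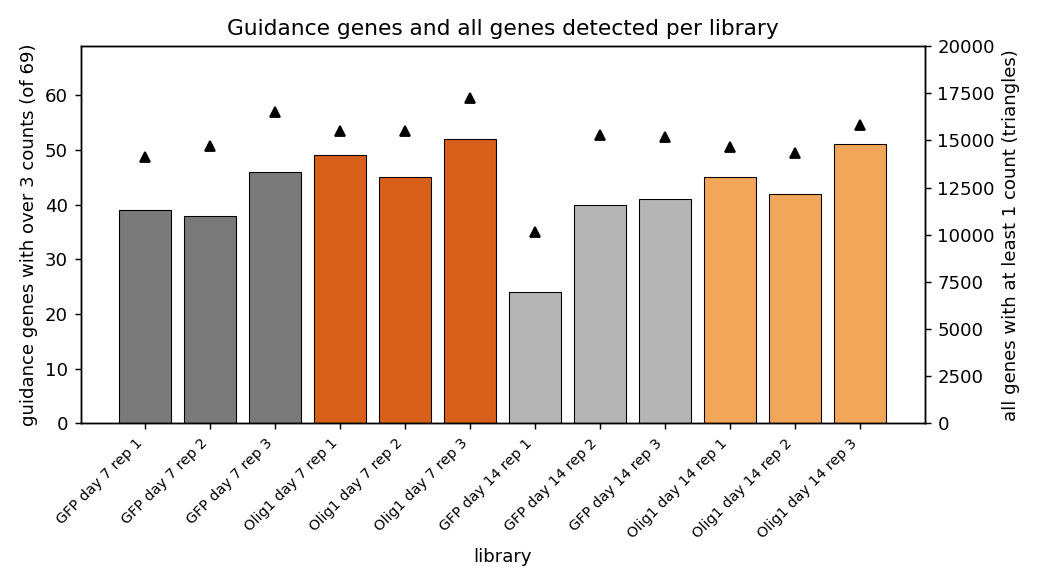
Bars give, for each of the 12 libraries, the number of the 69 guidance genes with more than 3 counts (left axis), and triangles the number of all genes with at least 1 count (right axis). GFP day 14 replicate 1 stands apart with 24 guidance genes and 10129 genes, and Olig1 day 7 replicate 3 is highest with 52 and 17244.

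Compared per length, as CPM per kilobase of exon (RPKM), the highest mean levels over the 12 libraries belonged to the A-type ephrins Efna5 (16.9 ± 31.9 RPKM, SD, n = 12) and Efna1 (9.43 ± 9.6 RPKM). Next came the EphA receptors Epha7 (5.79 ± 4.04 RPKM) and Epha5 (5.02 ± 3.13 RPKM), the transmembrane semaphorin Sema6a (4.06 ± 3.84 RPKM) and the netrin and repulsive guidance molecule receptor Neo1 (3.99 ± 3.0 RPKM). The Efna5 mean rested on Olig1 day 7 replicate 2 (115.5 RPKM). Without that library it was 7.91 RPKM against 9.26 RPKM for Efna1, and the medians over 12 libraries were 7.10 RPKM for Efna5 and 7.6 RPKM for Efna1. These neighbours in the order did not differ beyond their spread between libraries. Within the other families the leading genes were Plxnb2 (2.25 ± 1.97 RPKM) and Plxnb1 (1.96 ± 1.47 RPKM) among plexins, Sema5a (1.94 ± 1.76 RPKM) after Sema6a among semaphorins, and Unc5c (2.97 ± 4.18 RPKM) after Neo1 among netrin receptors. Slit2 (1.78 ± 2.38 RPKM) led Slit1 (0.658 ± 1.33 RPKM), and Robo2 (1.68 ± 1.08 RPKM) led Robo1 (0.156 ± 0.276 RPKM). Nrp2 (1.08 ± 1.55 RPKM) led Nrp1 (0.366 ± 0.499 RPKM). Without the same library the Unc5c mean was 1.81 RPKM, and by median Plxnb1 (2.21 RPKM) stood above Plxnb2 (1.87 RPKM). Ntn4 (1.3 ± 1.56 RPKM) was the only netrin above 3 counts in any library.

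**Figure D2:**
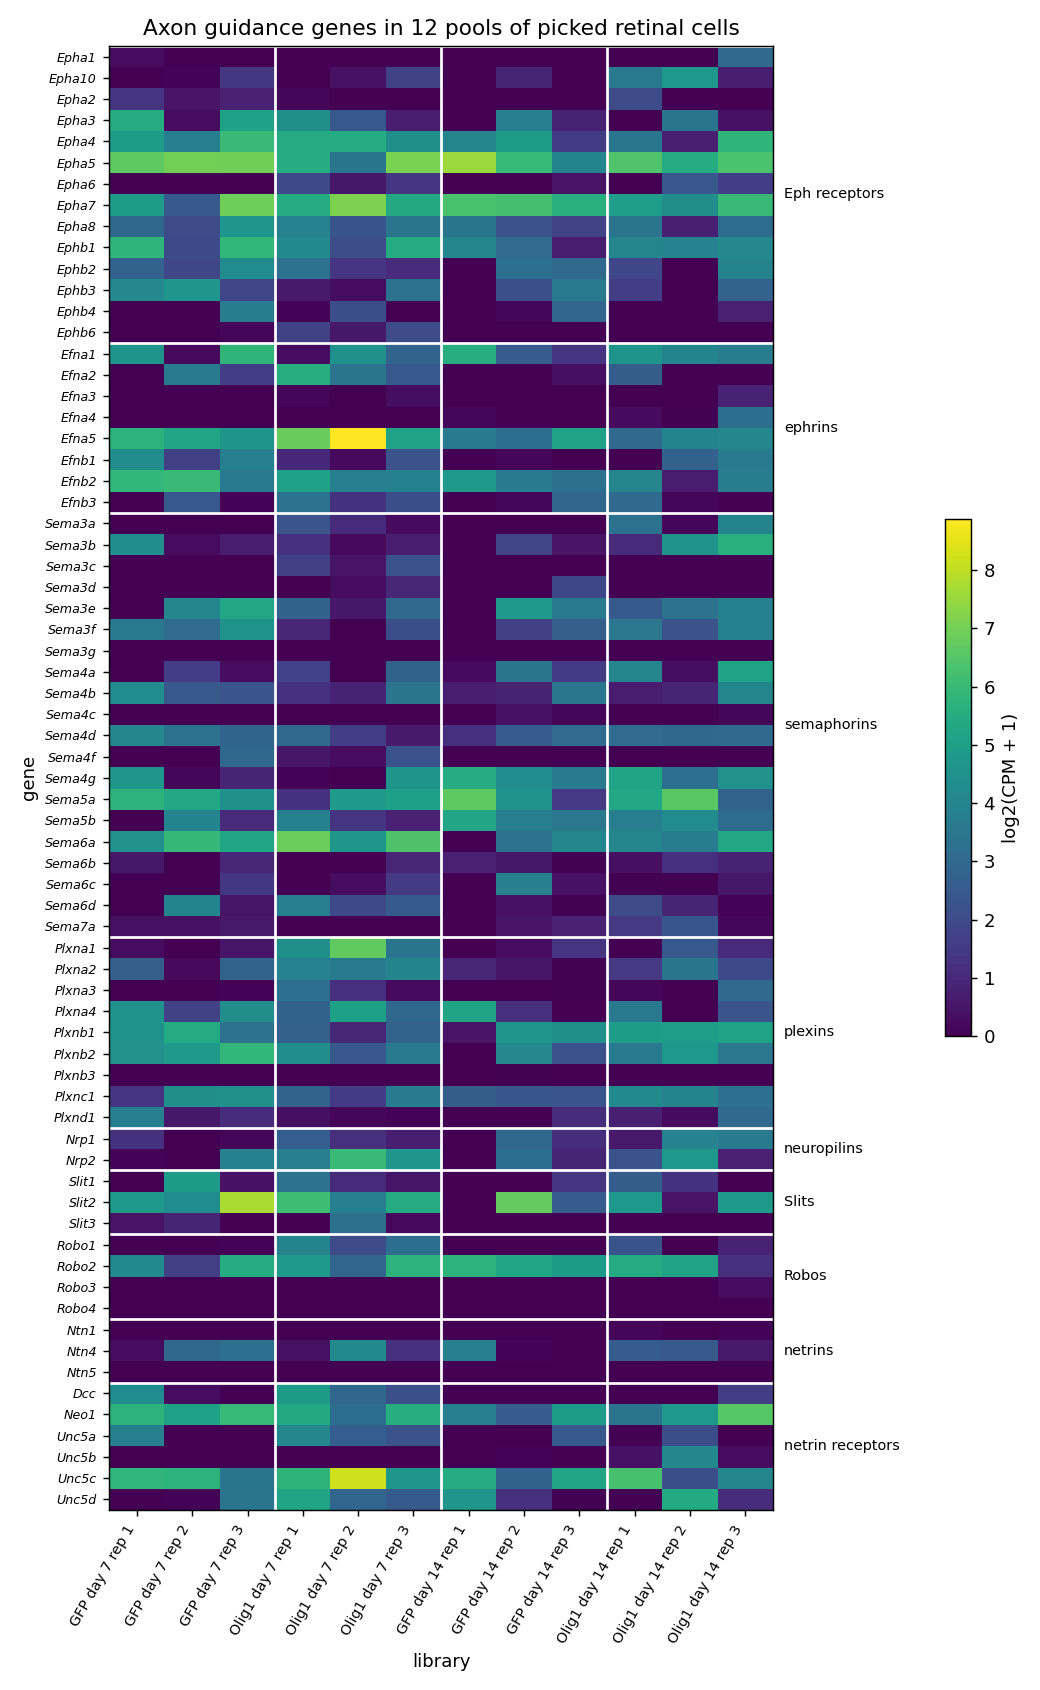
Each row is 1 of the 69 guidance genes and each column 1 of the 12 libraries, with white lines between families and groups, and the colour gives the level as log2(CPM + 1). Rows such as Epha5, Epha7, Efna5 and Robo2 are lit in all 12 libraries, whereas Robo1, Sema3a, Sema3c and Ephb6 are dark or nearly so in the 6 GFP libraries.

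Ligands and receptors that bind each other were counted where both were read from the same pool, which does not show that 1 cell made both. A gene above 3 counts in all 12 libraries meets any partner wherever that partner is detected. The counts below therefore follow from how often each gene was detected, and pairs that do not bind were not counted. Sema4d and its receptor Plxnb1 were both above 3 counts in 12 of 12 libraries, as were Efna5 with each of Epha4, Epha5 and Epha7, and Efnb2 with Ephb1. Slit2 and Robo2 met in 11 libraries. Slit2 and Robo1 met in 5, all of them Olig1 libraries, since Robo1 passed 3 counts only there. Sema7a and Plxnc1 met in 7 libraries, 3 of GFP day 7 and 0 of Olig1 day 7. Ntn1 was above 3 counts in 0 libraries, although Dcc was in 6 and Unc5c in 12.

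Whether Olig1 changed the guidance genes was asked in each comparison of AAV-Olig1 with AAV-GFP. At day 7 and at day 14, 0 of the 53 members that passed the filter on low counts were called by edgeR's quasi-likelihood test at a Benjamini-Hochberg adjusted p under 0.05, where 0.227% and 0.04% of the 14985 genes tested were called. In the mean of both days 0 were called (0.654% of all genes), and in the difference between the days 0 (0% of all genes). The remaining 16 members were too low to test: Efna3, Efna4, Epha1, Ephb6, Ntn1, Ntn5, Plxnb3, Robo3, Robo4, Sema3c, Sema3d, Sema3g, Sema4c, Sema4f, Slit3 and Unc5b. At an unadjusted p under 0.05, edgeR gave 7 members at day 7 (13.2% against 13.9% of all genes), 5 at day 14 (9.43% against 10.4%), 5 over both days (9.43% against 14.9%) and 6 in the difference between days (11.3% against 9.9%), shares near those of all genes. The DESeq2 Wald test called 3 members at day 7 (Efna5, Plxna1 and Robo1; 6.73% of all genes), 2 at day 14 (Efnb1 and Sema3a; 5.54%), 5 over both days (Plxna1, Plxna2, Plxna3, Robo1 and Sema3a; 8.22%) and 1 in the difference between days (Efnb1; 3.89%). Limma voom with sample weights called Robo1 at day 7 (2.87% of all genes), Robo1 and Sema3a over both days (3.07%), and 0 members at day 14 (0.367%) and in the difference between days (0%). With edgeR and no filter, 66 members were tested. Plxna1 was called at day 7 (0.871% of all genes), Plxna1 and Sema3a over both days (1.6%), 0 at day 14 (0.0919%) and 0 in the difference between days (0.16%). Without the 4 libraries with high microglia markers 59 were tested. Sema6a was called at day 14 (0.971%), Nrp2 and Sema6a over both days (1.92%), 0 at day 7 (0.237%) and 0 in the difference between days (0.7%). The fitted spread between libraries was wide, with a common biological coefficient of variation of 1.351.

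The median log2 fold change of the tested members, Olig1 over GFP, was -0.17 at day 7 (-0.03 over all genes tested) and 1.02 at day 14 (0.09 over all genes). It was 0.21 over both days (0.06) and 0.93 for the difference between days (0.07). At day 7, 25 members had a positive and 28 a negative value, and at day 14, 35 a positive and 18 a negative one. Without the 4 libraries with high microglia markers, which leaves only GFP day 14 replicate 1 in its group, the medians were 0.72 at day 7, 6.52 at day 14, 2.99 over both days and 3.88 for the difference. Leaving out GFP day 7 replicate 3 took the day 7 median to 0.81, and leaving out Olig1 day 14 replicate 3 took the day 14 median to 0.33. Members that passed the filter through the group where they are high had to differ, so these medians describe the fit and support no shift of the families.

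At day 7, 12 of the 53 tested members had levels that did not overlap between Olig1 and GFP (22.6%, against 18.4% of all genes). The 6 with all Olig1 libraries higher were Epha6, Plxna1, Plxna2, Plxna3, Robo1 and Sema3a (9.4% of all genes lay apart in that direction). Of these, Epha6, Plxna3, Robo1 and Sema3a passed the filter through Olig1 libraries alone, with at most 9, 1, 1 and 0 counts in any GFP library. The filter thus favoured their lying apart. The DESeq2 and voom calls of Robo1 and Sema3a and the DESeq2 call of Plxna3 used the same filter. The 6 with all Olig1 libraries lower were Epha2, Plxnb1, Plxnb2, Plxnd1, Sema3f and Sema7a (9.01% of all genes). Of the untested members, Sema3c and Ephb6 were also higher in all 3 Olig1 libraries. Both were named after their values were seen, and no share over untested genes was computed. At day 14, 4 of 53 lay apart, all higher with Olig1 (7.55%, against 11.9% of all genes in either direction): Plxna2, Plxnb1, Plxnc1 and Sema3a. Higher alone was 7.78% of all genes, and 0 members lay apart as lower (4.12% of all genes).

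Robo1 (ENSMUSG00000022883, chr16:72308306-73046095, with gene positions on GRCm38 throughout), a receptor that steers axons away from Slits, was nearly confined to Olig1 libraries. At day 7 it had 14.6, 3.11 and 8.25 CPM in the 3 Olig1 libraries and 0, 0 and 0.0585 CPM (a single read count) in the 3 GFP libraries. At day 14 it had 3.97, 0 and 0.798 CPM with Olig1 and 0 counts in all GFP libraries. The groups did not overlap at day 7 and overlapped at day 14, where Olig1 replicate 2 had no count. The ratio of summed counts, scaled by depth, was 509 at day 7 (95% counting interval 90.9 to 20150), and at day 14 Robo1 was at least 38.9-fold higher with Olig1, taking 3 counts over the GFP group as the floor. Adjusted p by edgeR was 0.275 at day 7, 0.438 at day 14 and 0.101 over both days. It was 0.0168 at day 7 with DESeq2 and 0.0197 with voom (range over 19 alternatives 0.0168 to 0.648). Robo2, the main Robo of ganglion cells, was present in all 12 libraries: 18.1, 2.19 and 43.5 CPM in GFP day 7, 27.0, 6.38 and 51.8 in Olig1 day 7, 52.5, 36.0 and 27.1 in GFP day 14 and 42.8, 33.8 and 1.33 in Olig1 day 14. Its groups overlapped at both days. Of the other Robos, Robo3, a receptor of commissural axons, had 4 counts in 1 Olig1 day 14 library and 0 elsewhere, and Robo4 had 0 throughout.

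The ganglion cell and amacrine marker sums were also higher in each Olig1 day 7 library, as given above, and their part in the Robo1 values was not tested. In Olig1 day 14 the ganglion cell sum was 147, 3138 and 139 CPM in replicates 1 to 3, beside 3.97, 0 and 0.798 CPM of Robo1. Of the 3138 CPM in replicate 2, 2261 were Sncg and 503 Tubb3. The other markers there lay at 1.87 (Rbpms2) to 96.1 CPM (Nefl), except Pou4f2 and Pou4f3, which were at 0. The amacrine marker sum in Olig1 day 14 was 1010.5, 531.5 and 1487 CPM in replicates 1 to 3. In GFP day 14 it was 280 to 752 CPM. Slit2, the main Slit ligand here, had 27.0, 18.8 and 212 CPM in GFP day 7, 67.5, 13.2 and 42.6 in Olig1 day 7, 0, 105 and 5.05 in GFP day 14, and 25.3, 0.367 and 26.8 in Olig1 day 14, with overlap at both days. Slit1 ranged from 0 to 27.3 CPM, and Slit3 passed 3 counts in 3 libraries, all of day 7.

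Class 3 semaphorins are secreted and mostly collapse growth cones. Sema3a (ENSMUSG00000028883, chr5:13125414-13602565), which signals through Nrp1 and A-type plexins, had 0 counts in all 6 GFP libraries. It had 4.08, 1.12 and 0.203 CPM (75, 14 and 3 counts) in Olig1 day 7 and 8.92, 0.0815 and 14.7 CPM (184, 2 and 276 counts) in Olig1 day 14. Both days' groups lay apart, although the lowest Olig1 library of each day stood at 3 and 2 counts, within the limit that a count of 0 allows. Against 3 counts over the GFP group it was at least 36.3-fold higher at day 7 and at least 186-fold higher at day 14. Adjusted p by edgeR was 0.285 and 0.438, and 0.0975 over both days, the lowest of any member. Over both days it was 0.000113 with DESeq2 and 0.0214 with voom (range over 18 alternatives 0.000113 to 0.209). The part of the ganglion cell and amacrine marker sums in the Sema3a values was not tested. Sema3c, a ligand of Nrp1 and Nrp2, had 2.23, 0.399 and 3.72 CPM in Olig1 day 7 and 0 counts in all 9 other libraries.

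Other class 3 members were lower or scattered. Sema3f, which acts through Nrp2, had 10.9, 7.66 and 22.2 CPM in GFP day 7 and 0.924, 0 and 3.38 CPM in Olig1 day 7, groups that lay apart, with a log2 difference of -3.29 ± 2.19 (SE; edgeR adjusted p = 0.545). At day 14 the order was not kept, with 0, 2.21 and 5.39 CPM in GFP and 10.6, 3.79 and 13.7 CPM in Olig1. Sema3b stood at 19.4 CPM in GFP day 7 replicate 1, at 22.2 and 47.5 CPM in Olig1 day 14 replicates 2 and 3, and at 2.57 CPM or less in the other 9 libraries. Sema7a, a membrane-anchored semaphorin that binds Plxnc1, was low throughout: 0.32, 0.328 and 0.527 CPM in GFP day 7 (21 counts together) and 0 counts in Olig1 day 7, at least 5.91-fold lower. Its edgeR adjusted p was 0.339. Sema4d, the ligand of Plxnb1, ranged from 0.541 to 16.4 CPM and overlapped between viruses at both days.

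Among the transmembrane semaphorins of the inner retina, Sema6a had 21.4, 58.2 and 35.6 CPM in GFP day 7 and 113, 24.6 and 83.7 CPM in Olig1 day 7. At day 14 it had 0, 9.2 and 16.4 CPM in GFP and 15.3, 12.1 and 37.6 CPM in Olig1, so the groups overlapped at both days. Without the 4 libraries with high microglia markers, GFP day 14 keeps replicate 1 alone, the library with 0 CPM of Sema6a. That fit therefore cannot decide the day 14 difference. Sema5a ranged from 1.47 to 102 CPM with overlap at both days. Sema6c, at most 1.82 CPM in 11 libraries and 13.7 CPM in GFP day 14 replicate 2, had the smallest p of the members lower with Olig1 at day 14 (log2 -4.62 ± 3.15, edgeR adjusted p = 0.768), and without that library the value was -0.31.

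Plexins are the signalling receptors of semaphorins. At day 7, 3 of the 4 A-type plexins were higher in every Olig1 library, and both detected B-type plexins and Plxnd1 were lower in every one. Of all genes tested, 9.4% lay apart as higher and 9.01% as lower. Plxna1 (ENSMUSG00000030084, chr6:89316314-89362620) had 20.6, 103 and 9.8 CPM in Olig1 day 7 and 0.213, 0 and 0.41 CPM in GFP day 7, a log2 difference of 8.39 ± 2.62 (edgeR adjusted p = 0.229). DESeq2 gave it an adjusted p of 0.000284 and edgeR without the filter 0.0376 (range over 20 alternatives 0.000284 to 0.648). Plxna2 had 14.3, 11.6 and 14.9 CPM against 5.43, 0.164 and 6.03 CPM (2.11 ± 1.83, adjusted p = 0.676). Plxna3 had 8.48, 1.36 and 0.203 CPM against 0, 0 and 0.0585 CPM, a count ratio of 208 (95% counting interval 36.9 to 8275, adjusted p = 0.326), its lowest Olig1 library resting on 3 counts. Plxna1, Plxna2 and Plxna3 thus lay above every GFP library, and Plxna4 did not, at 5.82, 31.6 and 6.89 CPM against 22.5, 2.3 and 19.7 CPM. In contrast, Plxnb1 (ENSMUSG00000053646, chr9:109095389-109119917) lay lower with Olig1 in every library, at 5.54, 0.957 and 6.08 CPM against 22.0, 42.9 and 9.19 CPM (-2.63 ± 1.35, adjusted p = 0.403). Plxnb2 did so too, at 19.5, 4.31 and 11.6 CPM against 21.3, 26.4 and 57.4 CPM (-1.51 ± 1.55, adjusted p = 0.744), with 19.5 and 21.3 CPM at the nearest libraries. Plxnd1, the receptor of Sema3e, had 0.272, 0.0798 and 0.0676 CPM against 13.3, 0.493 and 1.17 CPM (-4.86 ± 2.78, adjusted p = 0.459). Plxnc1 overlapped. This ordering by class is a description of 6 libraries, no plexin passed the edgeR test with the filter, and the classes were not tested against each other. The ganglion, amacrine, rod, cone, bipolar, endothelial, pericyte and oligodendrocyte lineage marker sums were apart between the same 6 libraries, and their part was not tested.

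By day 14 the plexin pattern was a different one. Plxnb1 had 29.0, 29.8 and 34.5 CPM in Olig1 and 0.392, 25.0 and 20.3 CPM in GFP, so that every Olig1 library was higher by a narrow margin (0.90 ± 1.28, edgeR adjusted p = 0.994). Plxna2 had 1.79, 9.78 and 2.87 CPM against 0.941, 0.435 and 0.0418 CPM (3.49 ± 1.94, adjusted p = 0.603). Plxnc1 had 18.1, 14.7 and 8.4 CPM against 5.14, 4.2 and 4.05 CPM (1.60 ± 1.46, adjusted p = 0.913). Plxna1 had 0, 4.44 and 1.06 CPM against 0, 0.217 and 1.5 CPM, and Plxna3 0.0969, 0 and 7.34 CPM against 0, 0 and 0.0418 CPM, both with overlap. For Plxna1 the difference between the days was -7.0 ± 2.98 (edgeR adjusted p = 0.464), and for Plxnb1 it was 3.53 ± 1.85 (adjusted p = 0.544).

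**Figure D3:**
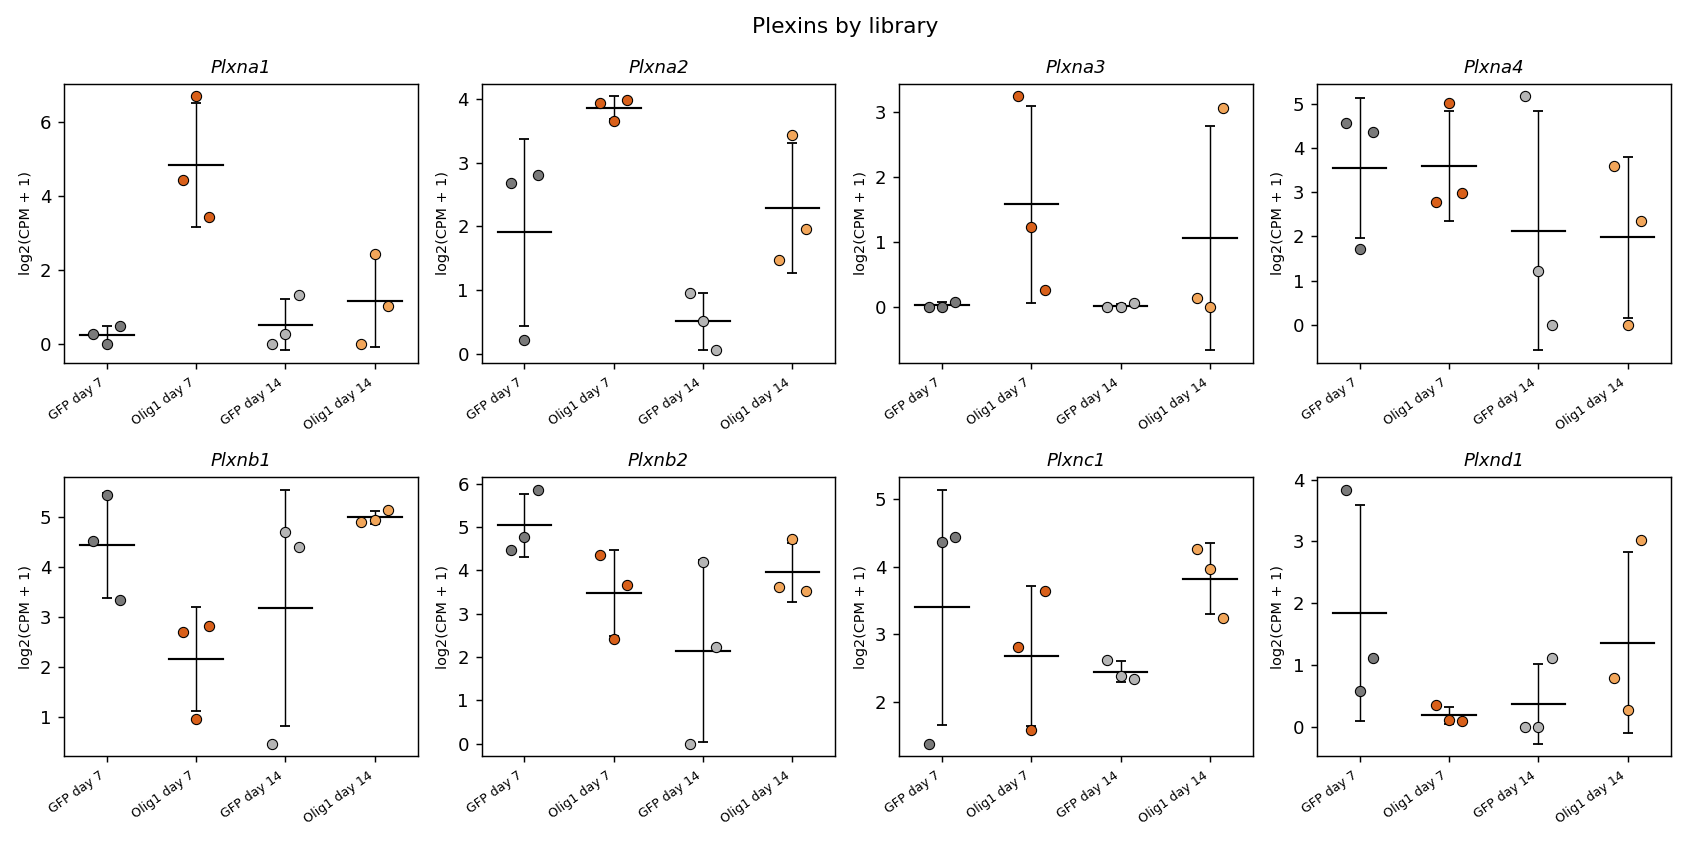
Each panel shows 1 plexin, with a point per library as log2(CPM + 1), a bar for the mean and whiskers for the SD of 3 libraries, and each panel has its own vertical scale. At day 7 the Olig1 points of Plxna1, Plxna2 and Plxna3 lie above all GFP points, those of Plxnb1, Plxnb2 and Plxnd1 below, and Plxna4 and Plxnc1 overlap. Plxnb3, with 1 count in all, is not drawn.

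The neuropilins are the ligand-binding partners of A-type plexins for class 3 semaphorins. Nrp2 had 13.0, 63.1 and 24.1 CPM in Olig1 day 7 and 0.0533, 0 and 13.9 CPM in GFP day 7, overlapping because GFP replicate 3 (13.9 CPM) stood just above Olig1 replicate 1 (13.0 CPM). Nrp1 had 5.22, 1.28 and 0.676 CPM against 1.39, 0 and 0.117 CPM. At day 14 both overlapped as well, with Nrp2 at 3.83, 25.7 and 0.745 CPM in Olig1 and 0, 8.19 and 0.877 CPM in GFP. All 4 neuropilin values (2 genes at 2 days) were positive, and 0 had an unadjusted p under 0.05.

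**Figure D4:**
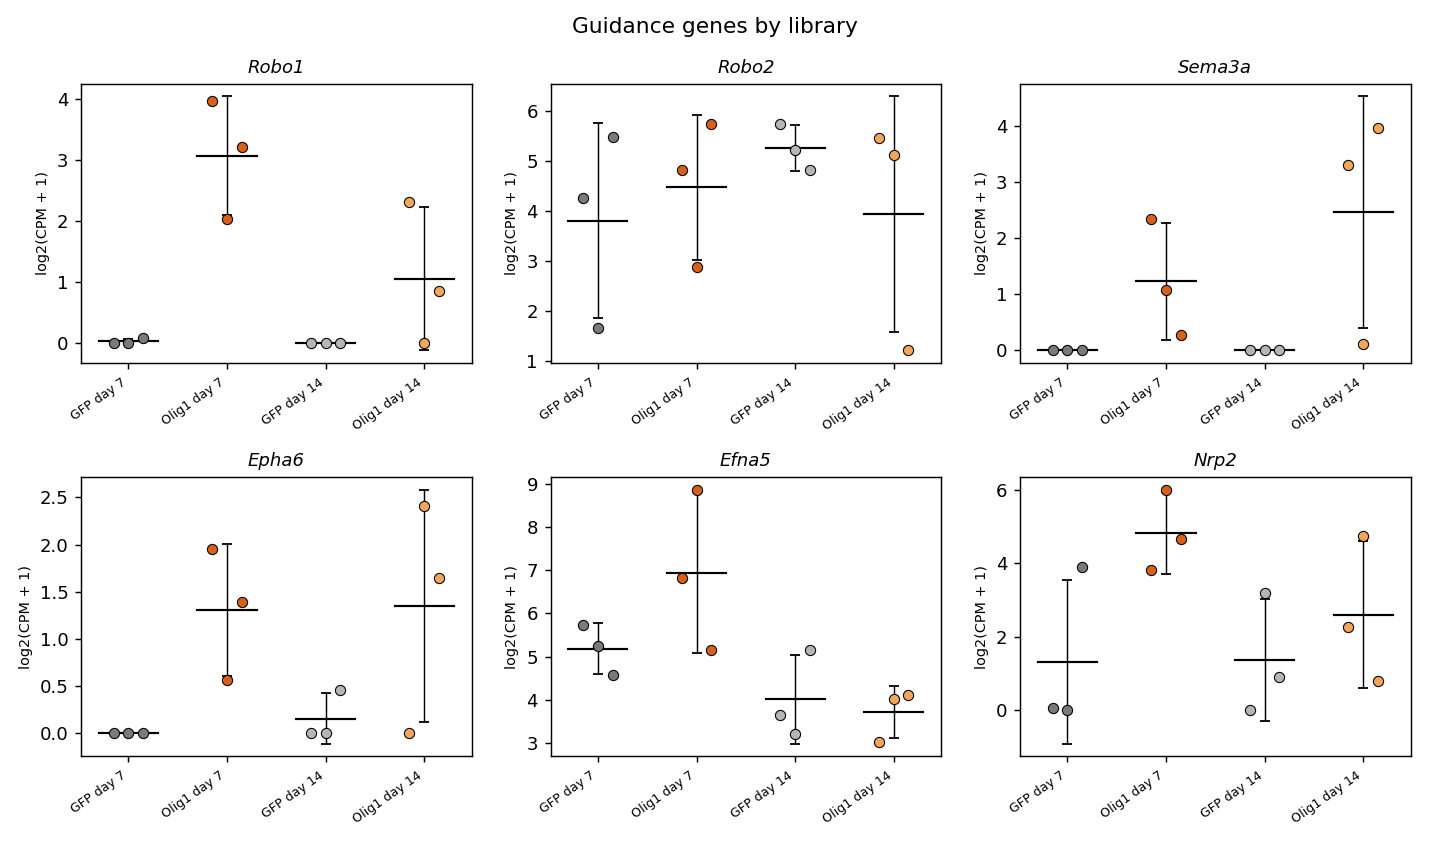
Points are single libraries as log2(CPM + 1) for Robo1, Robo2, Sema3a, Epha6, Efna5 and Nrp2, with bars for the mean and whiskers for the SD of 3 libraries, and each panel has its own vertical scale. Robo1 and Sema3a sit at or next to 0 in all 6 GFP libraries and above 0 in 5 and 6 of the 6 Olig1 libraries, while Robo2 overlaps throughout.

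Ephrin-A5 (Efna5, ENSMUSG00000048915, chr17:62604184-62881317), a membrane-tethered repellent of the retinal map, had the second smallest p of the members at day 7. It had 111, 466 and 34.4 CPM in the Olig1 libraries and 52.3, 36.9 and 22.9 CPM in the GFP libraries. The groups overlapped, since Olig1 replicate 3 was below GFP replicates 1 and 2. The log2 difference was 3.05 ± 1.04 (edgeR adjusted p = 0.261). It was called by DESeq2 (adjusted p = 0.0363, range over 20 alternatives 0.0363 to 0.944). Without Olig1 replicate 2, which had 466 CPM, the log2 difference was 0.85 (edgeR adjusted p = 0.944). At day 14 Efna5 was at 7.17, 15.1 and 16.4 CPM with Olig1 and 11.6, 8.22 and 34.7 CPM with GFP. Efnb1, a B-type ephrin, had 0, 5.78 and 11.8 CPM with Olig1 at day 14 and 0, 0.109 and 0 CPM with GFP, overlapping at 0. Efna1 and Efnb2 overlapped at both days.

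Of the 12 tested Eph receptors, 4 had a positive and 8 a negative log2 value at day 7, and 6 and 6 at day 14. Epha6 had 2.88, 0.479 and 1.62 CPM in Olig1 day 7 and 0 counts in GFP day 7, at least 32.8-fold higher over the floor (edgeR adjusted p = 0.29). At day 14 it had 0, 4.32 and 2.13 CPM with Olig1 and 0, 0 and 0.376 CPM with GFP. Epha2 went the other way at day 7, with 1.54, 0.383 and 0.761 CPM in GFP and 0.109, 0 and 0 CPM in Olig1, a count ratio of 20.7 (95% counting interval 5.43 to 176, adjusted p = 0.512). Ephb6, a family member without kinase activity, had 2.34, 0.479 and 3.18 CPM in Olig1 day 7, 2 counts in 1 GFP day 7 library and 0 counts in all 6 day 14 libraries. The abundant receptors of the map overlapped between viruses at day 7, where Epha5 had 101, 126 and 122 CPM in GFP day 7 and 44.1, 9.97 and 136 CPM in Olig1 day 7, and Epha7 28.7, 4.6 and 120 CPM against 43.5, 137 and 39.5 CPM.

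Netrin receptors mediate attraction (Dcc and Neo1) or, with Unc5 proteins, repulsion. Dcc had 27.3, 6.54 and 3.52 CPM in Olig1 day 7 and 19.1, 0.219 and 0 CPM in GFP day 7. At day 14 it was found in 1 library, Olig1 replicate 3, at 2.08 CPM. Unc5c had 53.9, 300 and 25.1 CPM in Olig1 day 7 against 56.4, 52.4 and 9.95 CPM in GFP, and Neo1 41.0, 8.14 and 44.9 CPM against 52.8, 32.7 and 60.7 CPM, all with overlap. Unc5b had 0.339, 16.4 and 0.213 CPM in Olig1 day 14 and 2 counts in all 9 other libraries together.

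**Figure D5:**
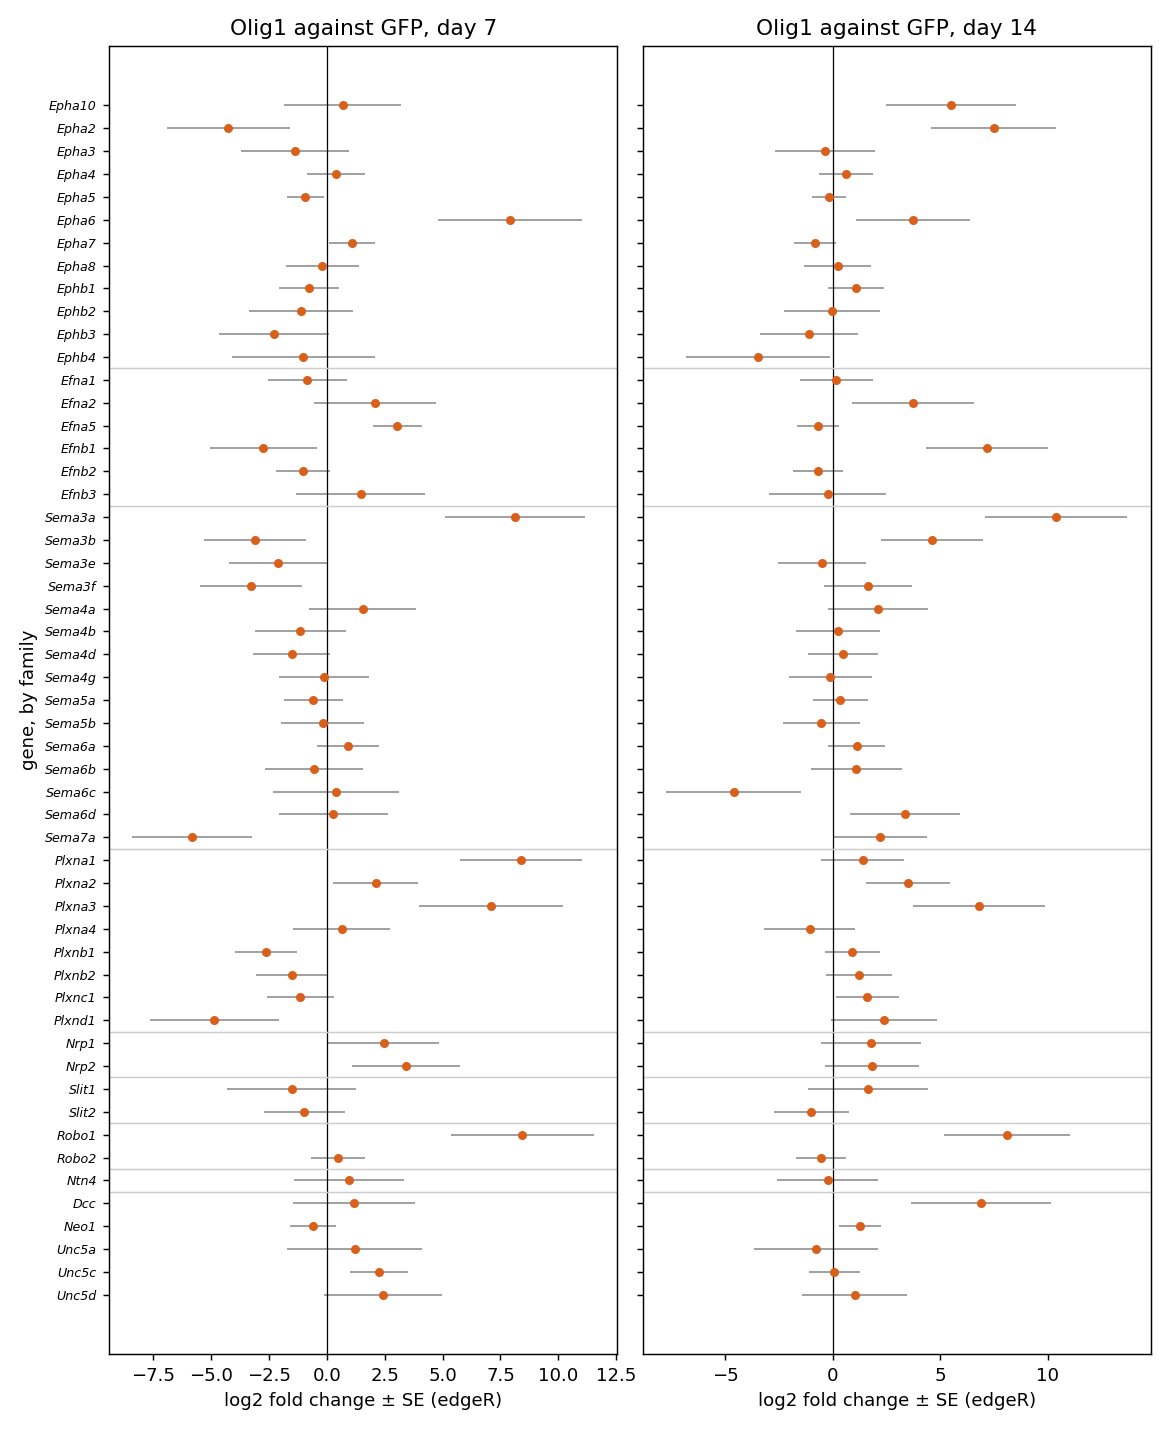
Points are edgeR log2 fold changes (Olig1 over GFP) for the 53 tested guidance genes, at day 7 (left) and day 14 (right), grouped by family. Lines are approximate standard errors, derived from the F statistic of the test. Genes with 0 counts in 1 group, such as Sema3a and Epha6 at day 7, have fitted values that depend on the prior count and are not bounds, and 0 of the 53 passed an adjusted p of 0.05 on either day.

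The sequences just upstream of 4 genes that lay apart at day 7 are shown because Olig1 belongs to a protein class that binds the E-box, CANNTG, whose pattern reads the same on both strands. Of the 12 such members, 10 were in the RefSeq promoter table (GRCm38.p6) and 7 had a window of 250 bases before the start that no annotated exon enters. Robo1, Sema3a and Plxna3 were higher with Olig1, and Sema7a was lower. Each line runs 5′ to 3′ on the strand of the gene and ends at the base before the RefSeq start, with E-boxes in capitals.
Robo1: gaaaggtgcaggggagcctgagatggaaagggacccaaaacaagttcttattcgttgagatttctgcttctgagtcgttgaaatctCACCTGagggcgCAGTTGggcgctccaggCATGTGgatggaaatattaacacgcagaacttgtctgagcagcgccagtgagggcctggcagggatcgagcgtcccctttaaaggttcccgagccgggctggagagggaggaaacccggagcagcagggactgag
Sema3a: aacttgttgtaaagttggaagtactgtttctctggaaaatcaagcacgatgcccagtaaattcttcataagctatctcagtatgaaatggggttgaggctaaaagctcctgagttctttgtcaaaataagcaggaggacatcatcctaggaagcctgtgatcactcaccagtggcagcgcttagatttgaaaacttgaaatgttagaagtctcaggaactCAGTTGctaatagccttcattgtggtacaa
Plxna3: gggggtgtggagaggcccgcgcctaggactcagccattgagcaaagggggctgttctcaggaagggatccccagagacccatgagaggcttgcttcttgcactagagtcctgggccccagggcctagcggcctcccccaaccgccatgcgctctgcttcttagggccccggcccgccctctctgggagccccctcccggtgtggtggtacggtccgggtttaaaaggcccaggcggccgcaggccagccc
Sema7a: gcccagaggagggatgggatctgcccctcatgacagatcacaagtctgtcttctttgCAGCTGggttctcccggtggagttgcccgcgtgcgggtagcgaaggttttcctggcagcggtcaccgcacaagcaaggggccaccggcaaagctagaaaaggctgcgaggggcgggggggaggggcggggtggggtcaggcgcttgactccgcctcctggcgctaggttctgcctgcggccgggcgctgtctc
The windows lie at chr16:72662899-72663148 (Robo1), chr5:13396534-13396783 (Sema3a), chrX:74328816-74329065 (Plxna3) and chr9:57939862-57940111 (Sema7a), all on the plus strand. For Robo1 and Sema3a the RefSeq start lies inside the longer GENCODE gene. The Robo1 window holds 3 E-boxes, those of Sema3a and Sema7a hold 1, and that of Plxna3 holds 0. The windows of Epha2, Plxnb2 and Plxnd1, all lower with Olig1, hold 0. Of 32851 windows of the same length in the table, 66.2% hold at least 1 E-box and 12.2% at least 3. A match is a run of letters and shows no binding.

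Change with time was asked within each virus. In the GFP libraries, 0 of the 53 tested members were called between day 14 and day 7 by edgeR (0% of all genes), and 3 had an unadjusted p under 0.05 (5.66% against 10.3%). DESeq2 called Dcc and Efnb1 (4.63% of all genes), and voom called 0 (0.113%). With edgeR and no filter 0 were called (0.0519%), and without the 4 libraries 1, Sema6a (0.8%). The members had a median log2 difference of -0.54 (-0.14 over all genes), with 15 positive and 37 negative, and of -1.86 without the 4 libraries with high microglia markers. Efnb1 had 19.4, 2.19 and 13.1 CPM in GFP day 7 and 0, 0.109 and 0 CPM in GFP day 14 (count ratio of 298, 95% counting interval 102 to 1449, edgeR adjusted p = 0.442, DESeq2 adjusted p = 0.00425, range over 20 alternatives 0.00425 to 0.651). Lower in all day 14 libraries, without overlap, were Efnb1, Epha2, Neo1, Plxnb2, Sema3f and Sema6a (11.3%, against 10.5% of all genes in that direction, and 14.4% in either), and 0 were higher (3.96%). GFP day 14 replicate 1, with the fewest genes detected, had 0 counts of 5 of these 6.

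In the Olig1 libraries, 0 of 53 were called between the days by edgeR (0.0334% of all genes), and 5 had an unadjusted p under 0.05 (9.43% against 11.8%). DESeq2 called 1, Efna5 (4.64% of all genes), and voom called 0 (2.09%). With edgeR and no filter Efna5 was called too (0.236%), and without the 4 libraries 0 were called (0.0827%). Efna5 was lower at day 14 in every library (111, 466 and 34.4 CPM at day 7 against 7.17, 15.1 and 16.4 CPM), a log2 difference of -4.29 ± 1.1 (edgeR adjusted p = 0.354, DESeq2 adjusted p = 0.0011, range over 20 alternatives 0.0011 to 0.739), and -2.22 without Olig1 day 7 replicate 2. Also lower without overlap were Dcc, Plxna1, Plxna2 and Unc5a (5 of 53, against 10.6% of all genes). Plxnb1, Sema3f and Sema7a were higher without overlap (3 of 53, against 5.55%). In either direction it was 15.1% of members and 16.1% of all genes. The day 7 group of each virus also enters its Olig1 against GFP comparison, so these values are not independent of those above.

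The wider pathway was read from a list of 108 further genes, chosen with earlier results of these data known. It held 32 other cues, receptors and co-receptors (26 tested), 57 cytoplasmic transducers (55 tested) and 19 proteases and transcription factors of retinal guidance (12 tested). Of these, 0 were called by edgeR at day 7 or at day 14 (0.227% and 0.04% of all genes). Unadjusted p values under 0.05 numbered 4, 8 and 3 at day 7 in the 3 lists (15.4%, 14.5% and 25.0%, against 13.9% of all genes) and 3, 4 and 3 at day 14 (11.5%, 7.27% and 25.0%, against 10.4%). DESeq2 called 1, 3 and 2 of the lists at day 7 (6.73% of all genes) and 2, 2 and 2 at day 14 (5.54%). Voom called 0, 1 (Srgap1) and 0 at day 7 (2.87% of all genes) and 1 (Chl1), 0 and 0 at day 14 (0.367%). Over both days DESeq2 called Chl1, L1cam, Cntn2, Ntng1, Srgap1, Ablim1, Limk1 and Rnd1 (8.22% of all genes). Voom called Chl1, Ntng1, Srgap1 and Rnd1 (3.07%). In the same comparison edgeR called 1 gene (0.654% of all genes), Ntng1, which was lower with Olig1. Ntng1 encodes netrin-G1, a membrane-anchored netrin relative that binds a synaptic adhesion protein and not Dcc. It had 54.3, 29.7 and 157 CPM in GFP day 7 against 15.1, 3.35 and 14.4 CPM in Olig1 day 7, and 162, 145 and 27.5 CPM against 6.35, 7.82 and 2.02 CPM at day 14. Every Olig1 library was lower than every GFP library of its day. The log2 difference was -3.53 ± 0.64 (edgeR adjusted p = 0.0275, range over 19 alternatives 4.1e-07 to 0.0917), and the call was lost without any 1 of GFP day 7 replicate 3, Olig1 day 7 replicates 1 or 2, GFP day 14 replicate 2, and Olig1 day 14 replicates 1 or 3, and without the 4 libraries with high microglia markers (adjusted p = 0.0554).

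Of the other genes the rule names, Dpysl2 (CRMP2, which relays semaphorin signals to microtubules) had 699, 197 and 108 CPM in Olig1 day 7 and 102, 63.9 and 58.5 CPM in GFP day 7 (edgeR adjusted p = 0.14). DESeq2 called Dpysl2 at day 7 and between days in GFP. Cfl1, the actin-severing cofilin, had 4471, 3140 and 745 CPM against 1248, 723 and 1393 CPM (adjusted p = 0.252), and Ablim1, an actin-binding protein, was lower at 58.9, 10.3 and 76.2 CPM against 290, 84.5 and 153 CPM (adjusted p = 0.275). Cyp26a1, which degrades retinoic acid, had 0.544, 0 and 0.27 CPM in Olig1 day 7 and 0, 20.1 and 32.0 CPM in GFP day 7, but 28.7, 0.652 and 34.2 CPM in Olig1 day 14 and 0 counts in GFP day 14. DESeq2 called Cyp26a1 at each day, in the difference between days and between days in each virus. At day 14 the cell adhesion gene Chl1 had 10.5, 9.78 and 10.3 CPM with Olig1 and 0 counts with GFP (edgeR adjusted p = 0.319, also the value of Ntng1 at that day). Both DESeq2 and voom called Chl1 at day 14, over both days and between days in GFP, and DESeq2 also in the difference between days. Rnd1, a GTPase that binds plexins, had 0, 15.4 and 0.372 CPM with Olig1 and 0 counts with GFP, while the cofilin kinase Limk1 had 0 counts with Olig1 and 1.18, 1.81 and 8.06 CPM with GFP. Rnd1 was called at day 14 by DESeq2. At day 7 Limk1 overlapped, with 0, 111 and 17.0 CPM in Olig1 and 1.28, 0.0547 and 0 CPM in GFP (log2 7.33 ± 2.72, edgeR adjusted p = 0.277), and DESeq2 called it at each day, over both days, in the difference between days and between days in Olig1.

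Sox11, a transcription factor of growing neurons, had 181, 251 and 51.0 CPM in Olig1 day 7, above the 1.92, 0.11 and 11.8 CPM of GFP day 7 (edgeR adjusted p = 0.149). DESeq2 called Sox11 at each day and in the difference between days. In Olig1 day 14 it had 0 counts in all 3 libraries, below the 0.941, 0.362 and 0.752 CPM of GFP day 14. Between the days in the Olig1 libraries it was called lower, at least 3369-fold, taking 3 counts over the day 14 group (edgeR adjusted p = 0.0282, range over 20 alternatives 1.47e-13 to 0.187). The call was lost with DESeq2 size factors (adjusted p = 0.0648), a stricter filter (0.0514) and only the groups compared (0.0527), without Olig1 day 7 replicate 1 or 2, and without any 1 of the Olig1 day 14 libraries. It was the 1 gene of the wider list that edgeR called in that comparison (0.0334% of all genes). There DESeq2 called Rgma, Rac1, Limk1, Cyp26a1 and Sox11 (4.64% of all genes), and voom called Sox11 (2.09%). In the same libraries the ganglion cell marker sum went from 1808 to 3957 CPM at day 7 to 139, 147 and 3138 CPM at day 14, and its part was not tested.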

How the data were processed

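Per the labels' protocols, cDNA of each pool was made from polyadenylated RNA by SMART-Seq HT (20 cycles of PCR), without molecular identifiers named. The deposited values are raw read counts per Ensembl gene. The submitters' processing notes name FastQC, the aligner HISAT2, the counter HTSeq and the build mm10. No version, gene annotation or strand option is given in the sources used here. The table of the series was used: 4 per-sample files end early (270 to 2853 genes missing), and 0 genes present in both differed. GENCODE M21 (GRCm38) gave symbols for 54165 of 54232 IDs and exon lengths.

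Counts were tested with edgeR 4.0.16 in R 4.3.3 (robust quasi-likelihood, TMM scaling; low genes removed by filterByExpr, min.count 10), in 1 fit of 12 libraries on 4 group means, with Benjamini-Hochberg adjustment over 14985 genes and a threshold of 0.05. Alternatives were DESeq2 1.42.0, limma voom 3.58.1 with sample weights, other scaling and filters, a replicate block, fewer groups, and libraries left out. Bounds take 3 counts over the group, and counting intervals are exact at 95%. The quasi-likelihood test reports no standard error. Each SE given with an edgeR value is the absolute log2 fold change divided by the square root of the F statistic, and is approximate. Log2 CPM of same-group libraries correlated at 0.71 to 0.808 across genes (12 pairs), other pairs at 0.599 to 0.805, and no duplicate was found. The labels mention batches without assigning libraries to them, so batch could not enter a test. Because strand is not given, exon overlaps were checked: Plxna1 shares 970 bases with Gm26811 (0 counts), Epha1 236 with Zyx, Ephb4 33 with Zan and Epha6 107 with Gm9017, all on opposite strands, so such reads cannot be told apart. Figures were drawn with matplotlib 3.10.9.

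Named were members called in any comparison, the 4 with the smallest p on each side of each comparison, the 2 highest per length in each family and those with 0 counts throughout; from the wider list, genes called and the 3 with the smallest p on each side at each day. Further members, among them Sema3c, Ephb6, Unc5b, Plxna2 and Sema3f, were named after their values were seen. Members and lists were chosen with earlier results of these data known.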

Additional observations from a re-analysis of the deposited data

Results flagged for a closer look

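Plxnb1, the Sema4d receptor, was singled out because Olig1 and GFP libraries differed in opposite directions at the 2 days, with every Olig1 library lower at day 7 and every Olig1 library higher at day 14. At day 7 it was at 5.54, 0.957 and 6.08 CPM with Olig1 and 22.0, 42.9 and 9.19 CPM with GFP, and at day 14 at 29.0, 29.8 and 34.5 CPM against 0.392, 25.0 and 20.3 CPM. The difference between the days was 3.53 on the log2 scale with a standard error of 1.85. It did not pass the test (edgeR's quasi-likelihood test with Benjamini-Hochberg adjustment, adjusted p = 0.544).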

How the results depend on the processing

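Across 20 alternatives, edgeR called 0 members in every comparison with DESeq2 size factors, the stricter filter (10 counts in 6 libraries), the replicate block, only the groups compared where run, and each library left out (0 to 0 in each of the 6 comparisons). The DESeq2 Wald test called 3 at day 7, 2 at day 14, 5 over both days, 1 in the difference between days, 2 between days in GFP and 1 in Olig1. Voom called 1 at day 7 and 2 over both days. With no filter, 1 of 66 was called at day 7 (Plxna1; 0.871% of all genes), 2 over both days (Plxna1 and Sema3a; 1.6%) and 1 between days in Olig1 (Efna5; 0.236%). Without the 4 libraries with high microglia markers, which leaves GFP day 14 with 1 library assumed to vary like the rest, 1 of 59 was called at day 14 (Sema6a; 0.971% of all genes), 2 over both days (Nrp2 and Sema6a; 1.92%) and 1 between days in GFP (Sema6a; 0.8%). The member medians were then 0.72 at day 7, 6.52 at day 14, 2.99 over both days, 3.88 for the difference and -1.86 between days in GFP. With 1 library left out at a time the medians ranged from -0.45 to 0.81 at day 7, 0.33 to 1.32 at day 14, 0.03 to 0.60 over both days, -0.07 to 0.87 for the difference, -1.10 to 0 between days in GFP and -0.62 to 0.27 in Olig1. Of 935 values computed for 50 results on single genes, 14 changed sign, all in comparisons where the gene was called under no setting. Without the 4 libraries these were Efna5 at day 14 (0.33), the Epha6 difference between days (0.58), Ephb3 over both days (1.65), Ephb4 at day 14 (5.40), Nrp1 between days in GFP (-6.49) and Sema7a over both days (1.45). With 1 library left out at a time, values that changed sign ranged from -1.10 to 0.54 for Efna5 at day 14, -5.31 to 0.66 for the Epha6 difference and -8.93 to 2.15 for Ephb4 at day 14 (positive without GFP day 14 replicate 3), from -3.42 to 1.02 for Sema6c over both days (positive without GFP day 7 replicate 3 or GFP day 14 replicate 2), from -1.01 to 9.56 for Sema6c between days in GFP (negative without the latter), from -2.69 to 7.45 for Epha2 between days in Olig1 (negative without Olig1 day 14 replicate 1), and from -4.05 to 0.045 for Unc5c between days in Olig1 (positive without Olig1 day 7 replicate 2). The cause was not tested. Same-numbered libraries did not deviate together (18 correlations from -0.07 to 0.04), so the replicate number pairs nothing. The block called 0 members in each comparison and took Sox11 between days in Olig1 to an adjusted p of 0.0696 (edgeR). With 3 counts equal to 0.109 to 0.239 CPM, levels at or below that cannot be told from 0 in a single library.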
